A study of Mus musculus with 8 samples.

Results

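Genes of GABA signalling and of cortical and striatal interneurons were examined in BTBR/R and B6 mice. The group held 31 genes of the 37074 gene names on the array, chosen by role from subunits of the GABA receptors, enzymes and transporters of GABA, proteins of the inhibitory postsynapse, chloride transporters and the transcription factors and markers of interneurons. Every probe that carried one of these names was taken, which gave 67 probes of 56605.

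GABA is the main inhibitory transmitter of the forebrain. It is made from glutamate by the enzymes encoded by Gad1 and Gad2, packed into vesicles, released, and bound by GABA-A receptors, which are pentameric chloride channels assembled from several subunit families, and by GABA-B receptors, which act through G proteins. Whether GABA lowers or raises the membrane potential depends on the chloride gradient set by the transporters Slc12a5 and Slc12a2. In the cortex GABA comes from local interneurons, whose identity is set by transcription factors of the Dlx family, Lhx6, Sox6 and Maf, whereas most neurons of the striatum are themselves GABAergic projection cells.

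RNA was measured in tissue holding the cerebral cortex and the striatum of 4 male B6 mice (C57BL/6J) and 4 male BTBR/R mice (BTBRTF/ArtRbrc), with 1 mouse for each array. BTBR/R is an inbred subline of the BTBR mice studied as a model of autism spectrum disorder and carries the mutations T, Itpr3 tf and a t. All mice were given pentobarbital, an anesthetic that acts on GABA-A receptors, before the tissue was taken. The mice were labelled as 4 months of age, apart from BTBR/R replicate 1 at 6 months. A single slide carried the 8 arrays, B6 along 1 side and BTBR/R along the other, so that the effect of strain and of the position on the slide cannot be told apart. Signals are log2 values of the scanner software's processed signal from which the array's 75th percentile was subtracted, called the scaled signal here, and changes as BTBR/R minus B6 on that log2 scale. A change passed the test at an adjusted p below 0.05 by limma with Benjamini-Hochberg adjustment over all probes, and it was called when it also reached 2-fold. Between 64.5% and 66.8% of probes were detected, that is marked by the scanner software as well above background, on the B6 arrays, against 53.5% to 57.2% on the BTBR/R arrays, and the lowest detected signal was 14.5 to 17.8 and 36.1 to 47.1, respectively. A dim probe therefore had a higher detection limit in BTBR/R mice. Where a gene had several probes, the lead probe was the one detected on the most arrays and, among those, the brightest. Since the tissue was taken whole, fewer cells of a type and less RNA per cell cannot be told apart.

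The 12 markers of cortical excitatory neurons and the 13 of striatal projection neurons used to check the tissue were detected on all 8 arrays. The mean scaled signal of the cortical markers was 1.45 to 1.63 in B6 and 1.51 to 1.68 in BTBR/R mice, and that of the striatal markers 2.73 to 2.86 and 2.59 to 2.79, so both ranges overlapped between the strains. Among the cortical markers 2 rose and 1 fell by the test. Among the striatal markers 10 of 13 changes were negative, 1 fell by the test and none rose, and the one that fell, Pde10a, did so by 1.07 on the log2 scale, past 2-fold. Over all lead probes detected on all 8 arrays 28.4% passed the test and 2.23% were called at 2-fold. Of the 12 cerebellar markers, 3, the member Gabra6 among them, were not detected on any array.

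On their lead probes, the main genes of GABA signalling had close levels in the strains. The lead probe of 28 of the 31 genes was detected on all 8 arrays, and among these only Gabrb2 passed the test, being higher in BTBR/R mice, while none fell. Of all 18861 lead probes detected on all 8 arrays, 28.4% passed the test, 13.9% higher and 14.4% lower in BTBR/R. The changes of the 28 genes ran from -0.22 to 0.33 with a median of 0.05, against a median of 0.00 over all such lead probes, and 16 were positive and 12 negative. The median ran from 0.018 to 0.059 when each mouse was left out in turn, the lowest values being 0.018 without B6 replicate 3, 0.020 without BTBR/R replicate 3, 0.021 without B6 replicate 2 and 0.032 without BTBR/R replicate 1. Their median size without regard to sign was 0.11, beside 0.12 over all. On the lead probe none of the 28 reached 2-fold, as 2.23% of such lead probes did with a passing p. At an unadjusted p below 0.05 there were 2 genes, Gabrb2 and Gabrr2, beside 37.6% of all such lead probes. These counts hold for lead probes only. Other probes detected on all 8 arrays passed the test for Gabrg3 (1.70), Gad1 (0.83), Reln (0.30) and Maf (-0.31), and are described below. Those of Gabrg3 and Maf are annotated to the RefSeq mRNA, unlike the lead probes of these genes.

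**Figure D1:**
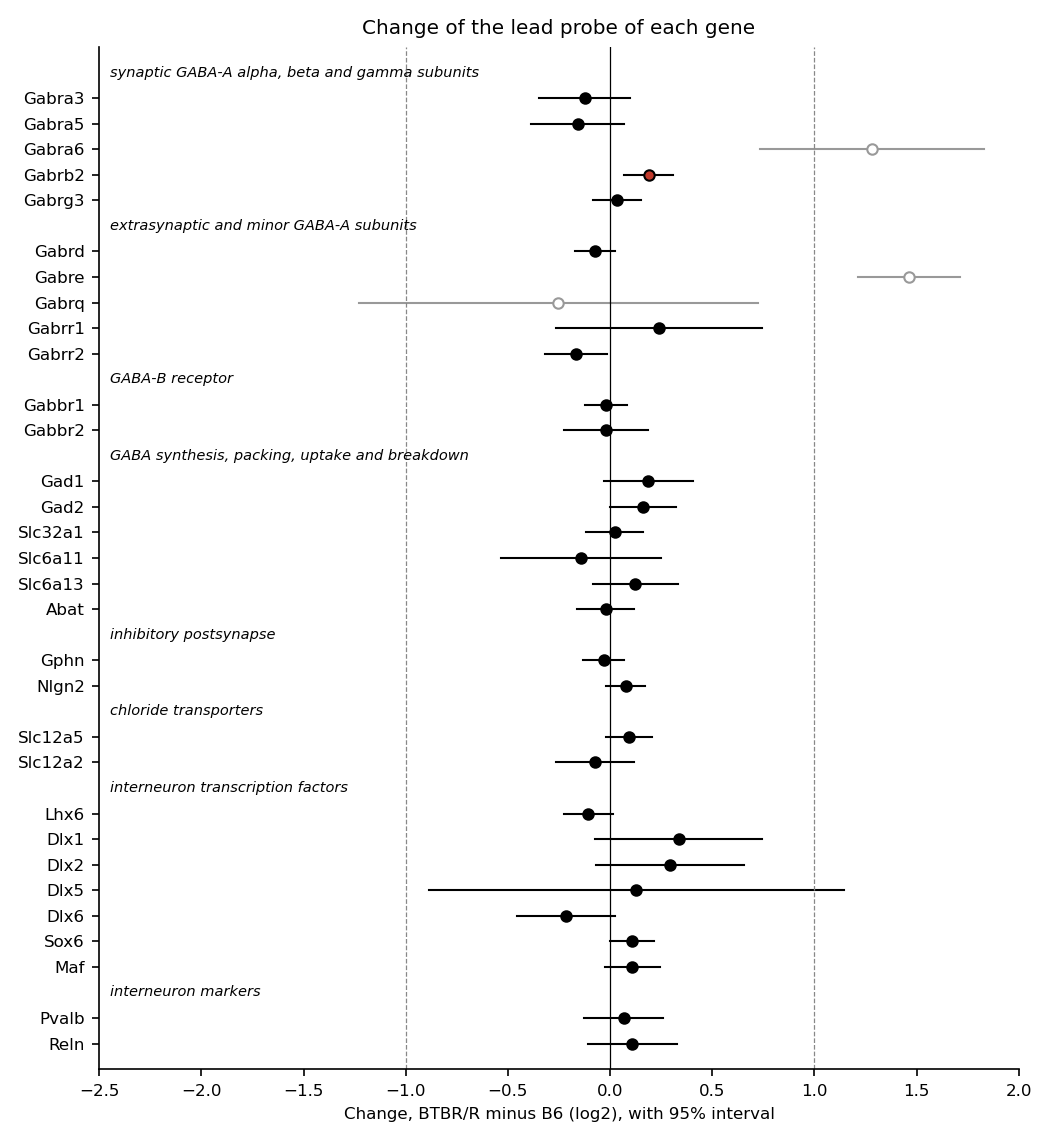
Change of the lead probe of each of the 31 genes (horizontal axis, log2, BTBR/R minus B6, n = 4 mice per strain) with its 95% interval from limma, grouped by role. Filled points were detected on all 8 arrays, the red point (Gabrb2, 0.19) passed the test, and open grey points (Gabra6, Gabre, Gabrq) were not detected on all arrays. Dashed lines mark a 2-fold change.

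The precision of these values can be read from their intervals. For 23 of the 28 genes the 95% interval of the change lay within 0.5 log2 units of 0, that is within 1.41-fold, and for 27 within 2-fold. The genes with wider intervals than 1.41-fold were Gabrr1, Slc6a11, Dlx1, Dlx2 and Dlx5, and for Dlx5 the interval reached beyond 2-fold. Over all lead probes detected on all 8 arrays, 78.4% of intervals lay within 1.41-fold and 94.9% within 2-fold. The values of the strains did not overlap for 3 of the 28 genes, Gabrb2, Gabrd and Nlgn2, whereas 34.9% of all such lead probes showed no overlap.

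**Figure D2:**
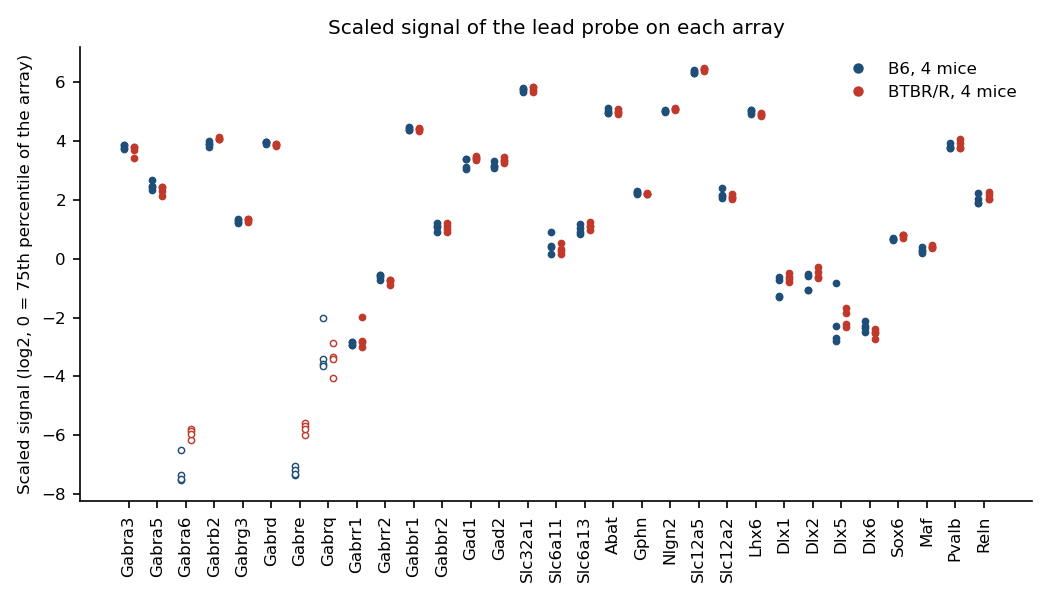
Scaled signal (vertical axis, log2, 0 is the 75th percentile of the array) of the lead probe of each gene on the 4 B6 (blue) and 4 BTBR/R (red) arrays, with 1 point per mouse. Open points belong to the 3 genes not detected on all arrays, and for most of the others the points of the strains lie on each other, as for Slc32a1 between 5.66 and 5.84. Heights are not comparable between genes, since probes differ in their response.

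Among the subunits of synaptic GABA-A receptors, Gabrb2 encodes the beta2 subunit, part of the most common receptor of the adult brain. It lies on chromosome 11 and had 3 probes detected on all arrays. The lead probe and a probe within the coding sequence are shown because they mark separate stretches of the transcript that gave the same change. The coding stretch reads into the last membrane-spanning segment of the protein. Positions are those of the mm9 build given with the arrays, and probe sequences are those of the array files.
Gabrb2 coding probe, chr11:42440313-42440372, plus strand: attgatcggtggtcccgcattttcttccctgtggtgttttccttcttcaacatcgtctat
Gabrb2 lead probe, its first 30 bases, chr11:42445782-42445811, plus strand: cttgtagcctttctgaacacacacatcatg

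The scaled signal of the Gabrb2 lead probe was 3.91, 3.91, 3.82 and 3.99 in the 4 B6 mice and 4.14, 4.07, 4.08 and 4.09 in the 4 BTBR/R mice. Every BTBR/R mouse was above every B6 mouse. The difference was 0.19 ± 0.05 (SE, n = 4 per strain), or 1.14-fold, with an adjusted p of 0.0221 by limma. The probe 3.59 kb upstream of it rose by 0.22 ± 0.06 (SE, limma adjusted p = 0.029), from 0.45 to 0.56 in B6 to 0.66 to 0.88 in BTBR/R mice, again without overlap. The coding probe gave 0.18 ± 0.07 (SE) and missed the threshold, with an adjusted p of 0.0789 by limma. The lead probe passed the test by a small margin: it no longer passed without B6 replicate 2, without B6 replicate 3 or without BTBR/R replicate 1, with adjusted p of 0.0533, 0.0537 and 0.0526 by limma. Nor did it pass when arrays were scaled by their median (0.16, adjusted p = 0.0645) or with normexp background correction (0.13, adjusted p = 0.0672). The probe 3.59 kb upstream did not pass without B6 replicate 2, 3 or 4, with limma adjusted p of 0.0733, 0.075 and 0.0528. It also failed without BTBR/R replicate 1 (0.0541) and with a common floor at the highest detection limit (0.0548), but passed with median scaling and normexp.

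Gabrg3 encodes the gamma3 subunit, a less common member of the gamma family, and lies on chromosome 7. It held the only probe of the 48 member probes detected on all 8 arrays that reached 2-fold with a passing p, while 2.20% of all 28557 such probes did. This probe, annotated to the RefSeq mRNA, covers the end of the coding sequence, and its stop codon is in capitals. The lead probe, 7.94 kb downstream of it and annotated to an Ensembl or cDNA transcript, holds the hexamer AATAAA, the common polyadenylation signal, in capitals. They are shown together because these stretches of the same gene gave different changes.
Gabrg3 coding probe, chr7:63979783-63979842, minus strand: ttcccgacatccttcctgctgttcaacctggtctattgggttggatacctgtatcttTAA
Gabrg3 lead probe, its last 30 bases, chr7:63971847-63971876, minus strand: gtttgtacttctgatacaAATAAAtgcaca

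On the coding probe the scaled signal of Gabrg3 was -2.46, -2.48, -2.51 and -2.37 in B6 mice and -0.73, -0.65, -0.84 and -0.82 in BTBR/R mice. The groups were far apart, and the spread within a strain was small (SD 0.06 in B6 and 0.09 in BTBR/R). The change was 1.70 ± 0.06 (SE), which is 3.24-fold, with an adjusted p of 4.66e-06 by limma. With normexp background correction it was 1.27 and still passed. On the lead probe the values were 1.24, 1.34, 1.23 and 1.32 in B6 mice and 1.35, 1.24, 1.35 and 1.32 in BTBR/R mice, a change of 0.03 ± 0.05 (SE, limma adjusted p = 0.644). The strains overlapped there. Of the other probes, both annotated to Ensembl or cDNA transcripts, the one 606 kb upstream of the lead probe gave -0.09 and the one 463 kb upstream gave 0.41 ± 0.42 (SE), where BTBR/R replicate 3 stood at -1.25 and the other 7 mice between -3.23 and -2.90. Neither passed the test.

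Gabra3 and Gabra5 encode alpha subunits found in smaller sets of receptors. Gabra3 changed by -0.12 ± 0.09 (SE) and Gabra5 by -0.16 ± 0.10 (SE), neither passing the test, and in each gene the other detected probe gave nearly the same value, -0.10 for Gabra3 and -0.15 for Gabra5. In Gabra5 the BTBR/R values ran from 2.14 to 2.43 and the B6 values from 2.33 to 2.68. Gabra6, the alpha subunit typical of cerebellar granule cells, was not detected on any array, nor was an Ensembl probe of Gabra3.

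The extrasynaptic and minor subunits follow. Gabrd encodes the delta subunit of receptors outside synapses that carry tonic inhibition. Its signal was 3.96, 3.97, 3.90 and 3.97 in B6 mice and 3.84, 3.89, 3.88 and 3.90 in BTBR/R mice, the lowest B6 value lying just above the highest BTBR/R value. The difference of -0.08 ± 0.04 (SE) did not pass the test (limma adjusted p = 0.195). Gabrr1 and Gabrr2 encode rho subunits, best known from the retina. Gabrr2 was -0.54, -0.71, -0.54 and -0.61 in B6 and -0.71, -0.71, -0.89 and -0.77 in BTBR/R mice, a change of -0.17 ± 0.06 (SE) that missed the threshold at an adjusted p of 0.0788 by limma. It passed as lower in BTBR/R when the arrays were scaled by their median.

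Gabrr1 was measured by a pair of overlapping probes that start 20 bases apart on chromosome 4. A stretch of 30 of the 40 bases that they cover in common is shown because the probes are not identical in it. Which probe matches the genome of either strain was not analysed here. The differing bases are in capitals and are T5C and T28C, with the base of the lead probe first and positions counted from the 5′ end of the printed stretch.
Gabrr1 lead probe, chr4:33250511-33250540, plus strand: gcctTtccaccacggagcaggtgctttTtt
Gabrr1 other probe, chr4:33250511-33250540, plus strand: gcctCtccaccacggagcaggtgctttCtt

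The lead probe of Gabrr1 gave -2.85, -2.93, -2.84 and -2.94 in B6 mice and -1.97, -2.99, -2.81 and -2.84 in BTBR/R mice. BTBR/R replicate 1 stood far above the other 7 mice, which lay between -2.99 and -2.81, and the change of 0.24 ± 0.21 (SE) did not pass the test (limma adjusted p = 0.42). The other probe gave -3.14, -3.05, -2.90 and -3.14 in B6 and -3.42, -3.50, -3.62 and -3.62 in BTBR/R mice, where it was detected in 1 mouse of 4. The measured change on this probe was -0.48 ± 0.08 (SE, limma adjusted p = 0.00206). It was 1.39-fold lower in BTBR/R mice when the detection limit of each array was taken wherever the signal was below it, which is not a lower bound. The change was smaller with a common floor at the highest detection limit (-0.44) and with normexp background correction (-0.28), and passed the test in both. The changes on the probes had opposite signs. This probe, like those of Gad1, Maf, Reln and Gabbr1 singled out below, was chosen after its values were seen.

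Gabre and Gabrq encode the epsilon and theta subunits, which are found mainly in the hypothalamus and brainstem. Gabre was not detected on any array. Gabrq was detected in 4 B6 and 3 BTBR/R mice, with -2.02, -3.41, -3.58 and -3.66 in B6 and -2.88, -3.35, -3.39 and -4.07 in BTBR/R mice. The values overlapped widely, and the change of -0.25 ± 0.42 (SE) did not pass the test. The lead probes of Gabra6 and Gabre changed by 1.28 and 1.47 and were the only members called at 2-fold, with adjusted p of 0.00377 and 2.76e-05 by limma, yet neither strain had a detected signal for them and no fold is given. Among all lead probes 22.0% were called higher and 2.18% lower. Of all 14867 probes detected on no array 67.7% were called higher in BTBR/R, and of the 9 member probes detected on no array 6 were called, all higher. These were probes of Gabra3, Gabra6, Gabre, Gabrq, Lhx6 and Sox6.

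**Figure D3:**
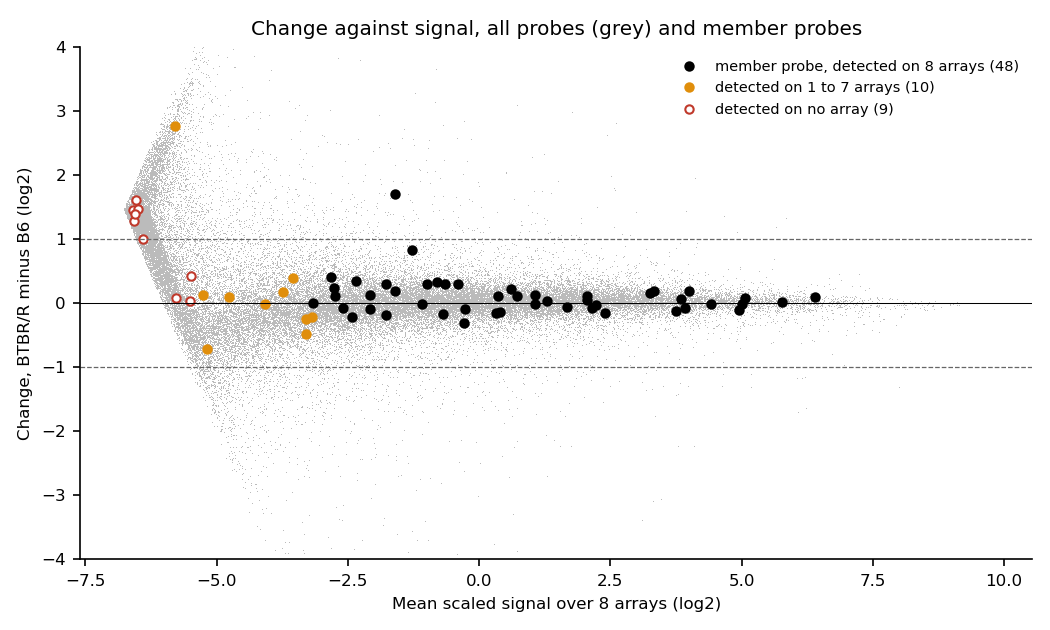
Change (vertical axis, log2, BTBR/R minus B6) against mean scaled signal over the 8 arrays (horizontal axis, log2) for all 56605 probes (grey, of which 72 lie outside the plotted range) and the 67 member probes. Of the members, 48 were detected on all 8 arrays (black), 10 on some (orange) and 9 on none (open red), and most of the last lie near a change of 1 to 1.61 at the dim end. The black point at 1.70 is the coding probe of Gabrg3 and that at 0.83 the upstream probe of Gad1.

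The GABA-B receptor is a pair of Gabbr1, which binds GABA, and Gabbr2, which couples to the G protein. Gabbr1 was 4.48, 4.39, 4.39 and 4.43 in B6 mice and 4.41, 4.43, 4.36 and 4.42 in BTBR/R mice, a change of -0.02 ± 0.04 (SE) whose 95% interval ran from -0.12 to 0.09. Gabbr2 changed by -0.02 ± 0.09 (SE), from 0.92 to 1.20 in B6 against 0.91 to 1.21 in BTBR/R mice. The strains overlapped for both genes. The log2 ratio of Gabbr2 to Gabbr1 within an array differed by -0.00 between the strains (p = 1, exact two-sided permutation test). Of the other Gabbr1 probes, those 24.9 kb and 1.81 kb upstream of the lead probe gave 0.05 and -0.06. A dim probe 9.27 kb upstream, annotated to an Ensembl or cDNA transcript, was detected in all 4 B6 and no BTBR/R mice. Its measured change was -0.71 ± 0.16 (SE, limma adjusted p = 0.00929), but the signal in B6 did not reach the detection limits of the BTBR/R arrays and gave no bound for a fold. With normexp background correction the change was -0.13 and did not pass.

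For the synthesis of GABA, Gad1 encodes the enzyme that makes most of the transmitter and Gad2 its partner at the nerve terminal. The lead probe of Gad1 was 3.38, 3.05, 3.11 and 3.40 in B6 and 3.42, 3.42, 3.48 and 3.38 in BTBR/R mice. B6 replicates 2 and 3 were the low mice, and B6 replicates 1 and 4 lay at the level of BTBR/R mice. The change of 0.19 ± 0.09 (SE) did not pass the test (limma adjusted p = 0.155). Gad2 was 3.32, 3.17, 3.08 and 3.16 in B6 and 3.44, 3.24, 3.36 and 3.32 in BTBR/R mice, a change of 0.16 ± 0.07 (SE, limma adjusted p = 0.108) that did not pass either. The groups overlapped for both enzymes, and the log2 ratio of Gad2 to Gad1 differed by -0.02 (p = 0.8, exact two-sided permutation test).

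Another Gad1 probe differed between the strains. It lies 39.8 kb upstream of the lead probe on chromosome 2 and is annotated to a predicted RefSeq mRNA, and the first bases of both are shown to mark where on the gene the larger and the smaller change were measured.
Gad1 upstream probe, chr2:70399873-70399902, plus strand: gtaggaattatattttcccttgccctcacc
Gad1 lead probe, chr2:70439699-70439728, plus strand: gagtgcccttaacataatgatttgaacata

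The upstream Gad1 probe gave -1.44, -1.91, -1.77 and -1.62 in B6 mice and -0.84, -0.92, -0.71 and -0.97 in BTBR/R mice. Every BTBR/R mouse was above every B6 mouse. The change was 0.83 ± 0.11 (SE), which is 1.78-fold, with an adjusted p of 0.000696 by limma, and with normexp background correction it was 0.59. A probe in between, 16.6 kb upstream of the lead probe, gave 0.30 ± 0.16 (SE) and overlapping strains, without passing the test. The other probes of Gad2 gave 0.11 and 0.30 and did not pass.

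The vesicular transporter Slc32a1, which loads GABA into vesicles, was 5.79, 5.66, 5.74 and 5.82 in B6 and 5.75, 5.83, 5.84 and 5.68 in BTBR/R mice. The values of the strains lay on each other, and the change was 0.02 ± 0.06 (SE) with a 95% interval from -0.12 to 0.16. Abat, the transaminase that breaks GABA down, changed by -0.02 ± 0.06 (SE) on its lead probe and by -0.01 on a RefSeq probe 12.6 kb upstream. Slc6a11, the GABA transporter of astrocytes, was 0.93, 0.16, 0.39 and 0.44 in B6 and 0.34, 0.17, 0.55 and 0.28 in BTBR/R mice, and its change of -0.14 ± 0.17 (SE) did not pass. Of the astrocyte markers, a list that holds Slc6a11 itself, 5 of 12 fell by the test and none rose, beside 14.4% of all lead probes that fell, with a mean scaled signal of 2.90 to 3.09 in B6 and 2.72 to 2.87 in BTBR/R mice, and their part in the value of Slc6a11 was not tested. Slc6a13, a GABA transporter of the meninges, changed by 0.12 ± 0.09 (SE), and did not pass the test. Of 14 meningeal markers detected on all 8 arrays, Slc6a13 among them, 2 rose by the test and none fell, beside 13.9% of all lead probes that rose, with overlapping levels of -0.20 to 0.21 in B6 and -0.08 to -0.03 in BTBR/R mice, and their part in the value of Slc6a13 was not tested.

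At the inhibitory postsynapse, Gphn encodes gephyrin, the scaffold that holds receptors in place, and Nlgn2 the adhesion protein neuroligin 2. Gphn was 2.23, 2.20, 2.26 and 2.30 in B6 and 2.21, 2.21, 2.24 and 2.21 in BTBR/R mice, a change of -0.03 ± 0.04 (SE) with a 95% interval from -0.13 to 0.07, and a probe annotated to the opposite strand gave -0.18 without passing the test. Nlgn2 was 5.02 ± 0.03 (SD, n = 4) in B6 and 5.10 ± 0.02 in BTBR/R mice, so that the lowest BTBR/R value lay just above the highest B6 value. The difference of 0.08 ± 0.04 (SE) did not pass the test (limma adjusted p = 0.178), and a dimmer Nlgn2 probe gave -0.08.

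The chloride transporters set the direction of the GABA-A current. Slc12a5, which exports chloride from neurons, was 6.36 ± 0.05 (SD, n = 4) in B6 and 6.45 ± 0.04 in BTBR/R mice, and its change of 0.09 ± 0.05 (SE) did not pass (limma adjusted p = 0.161). Slc12a2, the importer, was 2.40, 2.07, 2.16 and 2.12 in B6 and 2.11, 2.20, 2.10 and 2.04 in BTBR/R mice, a change of -0.08 ± 0.08 (SE). Both genes overlapped between the strains. The log2 ratio of exporter to importer, which does not depend on the scaling of the array, was 4.17 ± 0.18 (SD, n = 4) in B6 and 4.34 ± 0.08 in BTBR/R mice. The difference of 0.17 did not pass the test (p = 0.114, adjusted p = 0.229 over the 4 ratios compared, exact two-sided permutation test). With 4 mice against 4 and 4 ratios, the smallest adjusted p that a single ratio can reach is 0.114. The difference was 0.081 without B6 replicate 1 and 0.012 with normexp background correction.

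Among the transcription factors, Dlx1 and Dlx2 drive the GABAergic fate and neighbour each other on chromosome 2. Dlx1 was -0.74, -1.30, -1.25 and -0.62 in B6 and -0.80, -0.61, -0.47 and -0.68 in BTBR/R mice. Dlx2 was -0.58, -1.05, -1.05 and -0.52 in B6 and -0.65, -0.46, -0.29 and -0.62 in BTBR/R mice. In both genes B6 replicates 2 and 3 were low and B6 replicates 1 and 4 lay within the range of BTBR/R mice, as on the lead probe of Gad1. The changes of 0.33 ± 0.17 (SE) and 0.29 ± 0.15 (SE) did not pass the test, with adjusted p of 0.171 and 0.174 by limma. Their relatives Dlx5 and Dlx6 on chromosome 6 gave 0.13 ± 0.43 (SE) and -0.22 ± 0.10 (SE), and for Dlx5 the B6 values ran from -2.78 to -0.83. A dim Dlx1 probe was detected only in BTBR/R replicates 1 and 3, at -3.63 and -2.39.

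Lhx6 and Sox6 act in the interneurons that come from the medial ganglionic eminence, the source of the parvalbumin and somatostatin cells. Lhx6 ran from 4.92 to 5.05 in B6 and from 4.84 to 4.95 in BTBR/R mice, a change of -0.11 ± 0.05 (SE). Sox6 was 0.67, 0.66, 0.71 and 0.64 in B6 and 0.80, 0.80, 0.82 and 0.70 in BTBR/R mice, a change of 0.11 ± 0.05 (SE). The strains overlapped for both genes and neither passed the test, with limma adjusted p of 0.139 and 0.111. The other Sox6 probes and the other Lhx6 probe were not detected on all arrays.

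Maf encodes c-MAF, which acts in the same interneuron lineage, and its probes on chromosome 8 did not move together. The first bases of the lead probe and of the RefSeq probe 20.8 kb upstream are shown because the changes on them had opposite signs.
Maf lead probe, chr8:118206932-118206961, minus strand: catggaccctgcttgtttctaaacaccggt
Maf upstream probe, chr8:118227766-118227795, minus strand: tgggtatgtgtagttcttgctataccatgg

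The upstream Maf probe was -0.22, -0.12, -0.08 and -0.10 in B6 and -0.39, -0.55, -0.41 and -0.42 in BTBR/R mice. All BTBR/R values were lower than all B6 values, and the change was -0.31 ± 0.06 (SE), or 1.24-fold lower, with an adjusted p of 0.00345 by limma. The lead probe, annotated to an Ensembl or cDNA transcript, was 0.21, 0.42, 0.31 and 0.27 in B6 and 0.35, 0.46, 0.41 and 0.42 in BTBR/R mice. Here the strains overlapped, and the change of 0.11 ± 0.06 (SE) did not pass the test (limma adjusted p = 0.18).

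Of the interneuron markers, Pvalb encodes parvalbumin, the calcium buffer of fast-spiking interneurons. It was 3.93, 3.76, 3.81 and 3.75 in B6 and 3.93, 4.06, 3.76 and 3.77 in BTBR/R mice, a change of 0.07 ± 0.08 (SE) with a 95% interval from -0.13 to 0.26. The strains overlapped. The log2 ratio of Pvalb to Lhx6, a mature marker over a fate factor of the same cells, differed by 0.17 (p = 0.0857, adjusted p = 0.229, exact two-sided permutation test), which did not pass.

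Reln encodes reelin, a secreted protein of several interneuron classes. Its lead probe changed by 0.11 ± 0.09 (SE) and did not pass the test (limma adjusted p = 0.401). A probe 340 kb upstream, annotated to an Ensembl or cDNA transcript, did. The first bases of both are given for their place on the gene.
Reln lead probe, chr5:21390507-21390536, minus strand: ctgtggccgttttactgacagtaactgcca
Reln upstream probe, chr5:21730725-21730754, minus strand: caaaacagggtagaggagatcgttgatttc

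The upstream Reln probe was -1.13, -1.25, -1.18 and -1.01 in B6 and -0.74, -0.93, -0.75 and -0.93 in BTBR/R mice, without overlap. It rose by 0.30 ± 0.08 (SE), or 1.24-fold, with an adjusted p of 0.0155 by limma. On the lead probe the B6 values of 1.89 to 2.22 and the BTBR/R values of 2.02 to 2.26 overlapped. The change on the upstream probe exceeded that on the lead probe by 0.20. This difference between the probes did not pass in a limma fit over the probe pairs of all genes (adjusted p = 0.212). The other Reln probes detected on all arrays lie 14.4 kb and 458 kb upstream of the lead probe. They gave 0.35 and -0.01, and neither passed the test (limma adjusted p of 0.253 and 0.986).

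**Figure D4:**
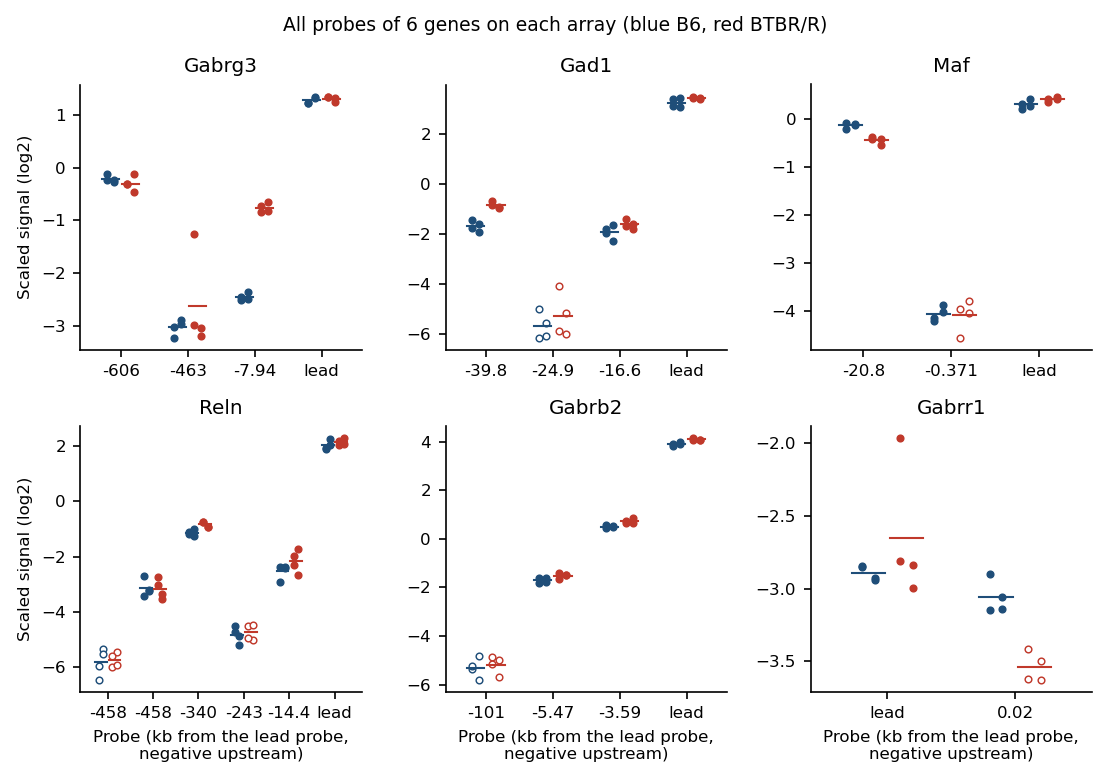
Scaled signal (vertical axis, log2) of every probe of Gabrg3, Gad1, Maf, Reln, Gabrb2 and Gabrr1 on the 4 B6 (blue) and 4 BTBR/R (red) arrays, with lines at the means and probes ordered by their distance from the lead probe in kb (horizontal axis, negative is upstream). Open points mark a strain in which the probe was not detected on all 4 arrays. The strains separate on the Gabrg3 probe at -7.94 kb, the Gad1 probe at -39.8 kb and, with the sign turned, the Maf probe at -20.8 kb, while the lead probes of these genes overlap.

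Counted over probes, 6 of the 48 member probes detected on all 8 arrays passed the test, 5 higher (the pair of Gabrb2 and those of Gabrg3, Gad1 and Reln) and 1 lower (Maf), beside 26.9% of all such probes. The change of the lead probe and that of another probe of the same gene could be compared for 20 pairs in 12 genes, and in 16 pairs they lay within 0.25 of each other. The difference per array between the probes was compared between the strains by an exact two-sided permutation test. It reached 0.0286, the smallest p that 4 mice against 4 allow, for Gabrg3 (1.66, other minus lead probe), Gad1 (0.64) and Maf (-0.42). After adjustment over the 20 pairs the smallest p was 0.19, so none passed. With 20 pairs a few of them cannot pass at any size of difference, since many would have to reach 0.0286 together. The permutation test therefore cannot decide whether the probes of single genes differ. A limma fit over all 9696 such pairs on the array, added after these values were seen, gave a passing p for the same 3 pairs, with adjusted p of 6.61e-07 for Gabrg3, 9.99e-05 for Gad1 and 0.00271 for Maf. Of all pairs 18.8% passed.

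Other genes of the same pathways were read from 7 lists, whose counts are to be read beside the 28.4% of all lead probes detected on all 8 arrays that passed the test and the 2.23% that were called at 2-fold. Of the other GABA-A receptor subunits, 7 of 9 were detected on all 8 arrays, 2 rose and 1 fell, with a median change of -0.02. Gabra2, an alpha subunit of synaptic receptors, was 0.97, 1.08, 1.02 and 1.07 in B6 and 2.10, 1.77, 2.22 and 2.21 in BTBR/R mice. With a change of 1.04 ± 0.10 (SE), or 2.06-fold (limma adjusted p = 0.000125), it was the only gene of this list called at 2-fold among those detected on all 8 arrays. Every BTBR/R mouse was above every B6 mouse.

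None of the 7 accessory subunits and effector channels of the GABA-B receptor passed the limma test, and 1 had an unadjusted p below 0.05. The median change of this list was 0.01, and the values furthest from 0 were -0.26 for Kctd12b and 0.34. Of the 14 other genes of GABA handling, 4 rose and 3 fell, beside 28.4% of all such lead probes that passed in either direction, with a median of -0.00. Maob, a monoamine oxidase, fell by 0.63 on the log2 scale, from 1.13 to 1.35 in B6 to 0.44 to 0.70 in BTBR/R mice. The glutamine transporters Slc38a5 and Slc38a2 changed by -0.37 and 0.53.

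Of the other genes of the inhibitory synapse, 21 of the 24 listed had a probe, all detected on all 8 arrays, 2 rose and 1 fell with a median of 0.00. Plcl1, whose protein binds GABA-A receptors and phosphatases, fell by 0.48 on the log2 scale, while Clptm1, a regulator of receptor trafficking, rose by 0.20 and Igsf9b, an adhesion protein of inhibitory synapses, by 0.21. Among 15 detected genes of chloride and bicarbonate transport none rose and 2 fell, with a median of 0.02. The carbonic anhydrase Car7 was among those that fell (-0.19). Of 21 detected interneuron transcription factors 3 rose and none fell, with a median of 0.09. Among them were Npas1 (0.72, from 0.55 to 0.71 in B6 to 1.31 to 1.38 in BTBR/R mice) and Satb1 (0.27).

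Of the 37 further interneuron markers, all detected on all 8 arrays, 10 rose and 6 fell, beside the same 28.4% of all lead probes, with a median of 0.05. Cort, the neuropeptide cortistatin, was 2.32, 2.40, 2.32 and 2.55 in B6 and 1.30, 1.30, 1.27 and 1.44 in BTBR/R mice. Cox6a2, a subunit of cytochrome oxidase found in parvalbumin interneurons, was 2.58, 2.39, 2.45 and 2.31 in B6 and 1.17, 1.51, 1.16 and 1.18 in BTBR/R mice. Both were called lower at 2-fold without overlap, Cort by 2.10-fold and Cox6a2 by 2.27-fold, with limma adjusted p of 2.76e-05 and 4.25e-05. Npas1, which is on this list too, ranked between them by p. Pvalb itself, whose cells hold Cox6a2, had not passed the test.

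**Figure D5:**
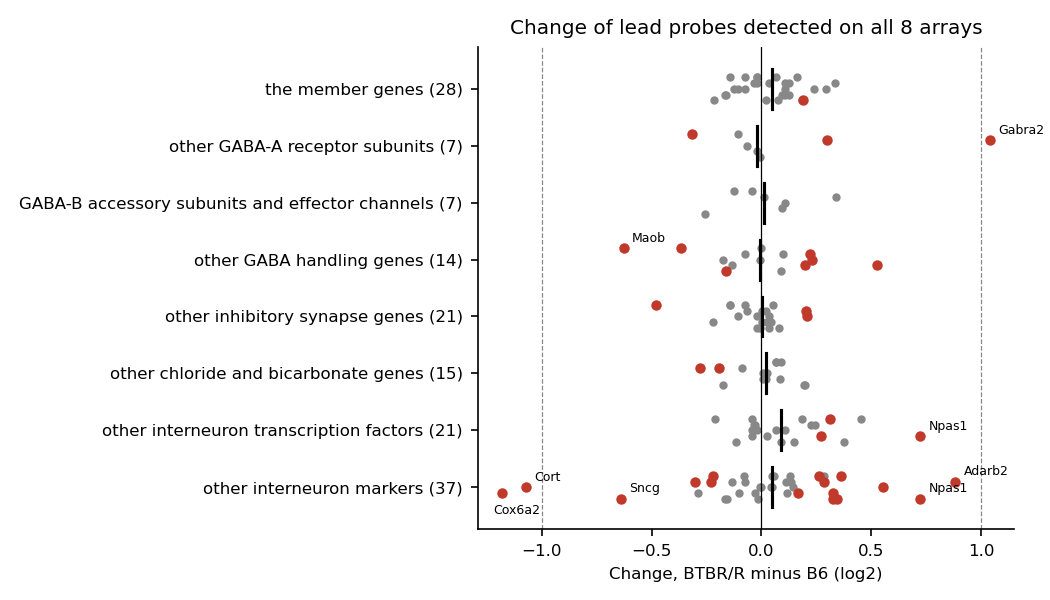
Change (horizontal axis, log2, BTBR/R minus B6) of the lead probe of each gene detected on all 8 arrays, for the member genes and the 7 further lists, with the number of genes in brackets. Red points passed the test, grey points did not, black bars are medians and dashed lines mark 2-fold, and genes more than 0.6 from 0 are named. Gabra2 (1.04) lies beyond 2-fold on the higher side, and Cort (-1.07) and Cox6a2 (-1.18) on the lower.

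The values of the other cell type lists follow, and their part in the values above was not tested. Among oligodendrocyte markers 4 of 11 fell by the test and none rose, with a mean scaled signal of 3.39 to 3.73 in B6 and 3.19 to 3.40 in BTBR/R mice. Of 6 red blood cell markers detected on all 8 arrays 4 fell, with 2.73 to 4.54 in B6 and 2.52 to 2.80 in BTBR/R mice. These counts stand beside the 14.4% of all lead probes that fell. No thalamic, cerebellar or choroid plexus marker detected on all 8 arrays passed the limma test, nor had any an unadjusted p below 0.05, but single mice stood far apart. Over the markers detected on all 8 arrays, the mean scaled signal ran from -0.54 to 0.91 in B6 and from -0.56 to 0.37 in BTBR/R mice for 9 thalamic markers, from -2.40 to -0.14 and from -1.68 to -0.57 for 10 choroid plexus markers, and from -0.10 to 0.51 and from -0.01 to 0.35 for 7 cerebellar markers.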

How the data were processed

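RNA of 8 mice was hybridized to Agilent 1-colour mouse arrays. The authors extracted spot intensities with Feature Extraction 10.7.3.1, whose processed signal is background subtracted and detrended, and deposited them together with GeneSpring log2 values. On each array these were the log2 of that signal less 1 constant, within 0.01 for nearly all probes.

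Control spots and flagged outliers (36 to 52 per array) were left out, repeated spots averaged, and 56605 probes scaled by the 75th percentile of each array, which was 535 to 589 in intensity. No probe was saturated. Strains given in the labels were compared with limma 3.58.1 in R 4.3.3, and the fit was tested on simulated data. Tables and plots used Python 3.11.15. Precision is limited by the number of arrays and, for dim probes, by the detection limit. Nothing in the sources used here names litters, so it is not known whether the mice of a strain were independent. The p-values set the difference of the strains, which includes that of the slide positions, against the spread between these mice.

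All 8 values were given for genes whose lead probe passed the test, or whose other probes passed it at 2-fold with detection on every array of a strain. Genes of the further lists were named if called at 2-fold with such detection, or otherwise for the 3 lowest p of a list. A few genes of these lists are counted but not reported here by name. Members, lists and tests were chosen with earlier results of these data known. Of the 67 probes, 44 were matched by accession to RefSeq genes, all with the same symbol. Alternatives were other background, scaling, filter, floor, pairing and test settings and leaving out each mouse. Replicate numbers were not taken as pairs.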

Additional observations from a re-analysis of the deposited data

Results flagged for a closer look

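In 2 groups of 4 mice, of 96 examined over the member probes detected on all 8 arrays, a single mouse stood apart by a gap that passed Dixon's critical value at 95% confidence for groups of 4, a limit that chance passes in about 1 group of 20. On the Gabrg3 probe that starts at chr7:64434682, BTBR/R replicate 3 had a scaled signal of -1.25 while the other BTBR/R mice lay between -3.20 and -2.99. On the Reln probe that starts at chr5:21404915, B6 replicate 1 had a scaled signal of -2.91 while the other B6 mice lay between -2.43 and -2.36. Neither probe was a lead probe or passed the test.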

How the results depend on the processing

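The 2 members called at 2-fold, Gabra6 and Gabre, were 0 with a floor at the highest detection limit, normexp background correction, quantile normalization, either filter on detection and the median over the probes of a gene. The count of members higher past adjusted p, 1 in the report, was 2 with the floor (Gabrb2, Nlgn2), 4 with limma's trend and robust options (Gabrb2, Gad2, Nlgn2, Slc12a5), 3 with the methods' t-test (Gabrb2, Nlgn2, Sox6), 3 with quantile normalization (Gabrb2, Nlgn2, Slc12a5) and 0 with median scaling or normexp. The count of members lower, 0 in the report, was 1 with the trend and robust options (Lhx6), 1 with median scaling (Gabrr2) and 1 with the methods' t-test (Gabrd). Leaving out each mouse in turn gave 0 to 2 members higher. It was 0 without B6 replicate 2, B6 replicate 3 or BTBR/R replicate 1, and 2 without B6 replicate 1. The median change was 0.011 with the median over probes, 0.022 with median scaling, 0.028 with normexp and 0.018 to 0.059 over the left-out mice. The ratio of Gad2 to Gad1 turned to 0.017 with normexp and ran from -0.089 to 0.034 over the left-out mice, and that of Gabbr2 to Gabbr1 from -0.060 to 0.051. The ratio of Slc12a5 to Slc12a2 ran from 0.081 to 0.210 and that of Pvalb to Lhx6 from 0.122 to 0.215, where 0.114 is the smallest adjusted p a single ratio can reach. The limma fit over the probe pairs of all genes gave 3 member pairs with a passing p where the permutation test gave 0, a test in which so few pairs could not pass. The cause of these shifts was not tested.

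The Gabrg3 coding probe, the upstream Gad1 probe and the upstream Maf probe passed adjusted p in all 19 alternatives, with changes of 1.27 to 1.73, 0.59 to 0.91 and -0.34 to -0.27, and the other Gabrr1 probe in all 18 that gave a value. The dim Gabbr1 probe did not pass with the floor, normexp or quantile normalization, nor the Gabrb2 probe 3.59 kb upstream in 6 of 19. Mice of the same replicate number did not deviate together (correlations of -0.07 to 0.16). With the replicate number as a block 0 members passed, Gabrb2 having an adjusted p of 0.0747 by limma, and the upstream Reln probe (0.0517) and the upstream Gabrb2 probe (0.0844) did not pass either.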
